A study of Mus musculus with 23 samples.

Results

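Colon non-tumor tissue of mice colonized for 12 weeks with Bacteroides fragilis of low bile salt hydrolase activity (BF BSHlow) was compared with normal colon of mice colonized with the same strain for 2 weeks. These were 8 of the 23 samples of the series, chosen by their labels: 4 libraries called normal colon at 2 weeks and 4 called non-tumor at 12 weeks. BF BSHlow is strain 638R carrying an empty vector (bsh- in the labels), and BF BSHhigh is the same strain carrying the bsh gene of another B. fragilis strain. All mice were male C57BL/6 Cdx2Apcf/w animals on a 60% high-fat diet, given a short course of antibiotics before colonization. In this genotype Cre under the Cdx2 promoter removes 1 floxed Apc allele in the epithelium of the distal gut, and both groups carried it, so the Apc level checks no label here.

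The groups differed in more than colonization time. The 2-week and the 12-week mice belonged to separate experiments, and with mice 6 to 8 weeks old at the start the nominal age was 8 to 10 weeks in one group and 18 to 20 weeks in the other. The paper does not state how long the 2-week mice ate the diet before colonization. A longer diet in the 12-week mice is inferred from colonization time. The 12-week mice were further from the antibiotics and belonged to an experiment in which colon tumors were also collected. Whether each of these 4 mice bore a tumor, and how near to one the tissue lay, is not stated in the sources used here. Neither the segment of colon nor the layers kept at dissection is stated for either group in the sources used here. Time, age, diet length, tumors, segment, dissection and experiment cannot be told apart by this comparison.

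The colon is not uniform along its length. Hox genes are transcription factors that pattern the body axis, and the gut keeps a positional code in which genes of the 5′ end of each cluster, such as the Hox13 group, mark the distal end and genes of the middle of the clusters mark more proximal gut. Proximal and distal colon also differ in function: carbonic anhydrase and sodium-hydrogen exchange serve the proximal absorptive epithelium, while the epithelial sodium channel, the colonic proton pump and the hormone INSL5 belong to the distal colon. Bile acids that escape the ileum are taken up, sensed and exported by colonocytes through their own transporters and the nuclear receptor FXR.

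Library totals ran from 12401365 to 17103200 expected counts. Levels are given as CPM, a gene's counts scaled to library size, after TMM scaling, in the order of replicates 1 to 4, and comparisons are made within a gene and never between genes. A gene was called when the edgeR quasi-likelihood test gave a Benjamini-Hochberg adjusted p under 0.05 and the log2 fold change, 12 weeks against 2 weeks, passed 1 in either direction. The first principal component of the 8 libraries held 74.6% of the variance and separated the groups, with 2-week libraries from -85.7 to -66.4 and 12-week libraries from 52.7 to 96.2. Of 14555 genes tested, 2205 (15.1%) were called higher and 1104 (7.59%) lower at 12 weeks, and the median log2 fold change of all genes tested was -0.02. Without correction for composition (library size alone) that median moved up by 0.24, and with scaling to 6 epithelial genes by 0.22. All 4 libraries at 12 weeks lay above all 4 at 2 weeks for 21% of genes and below them for 19.6%. Each count of called list members below is to be read beside the shares of 15.1% and 7.59%.

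3 libraries stood apart. The 2-week replicate 3 carried fat cell transcripts, with Cfd, the adipsin of adipocytes, at 57 CPM against 2.67, 0.933 and 0.656 CPM in the other 2-week libraries. The 12-week replicate 2 had the most smooth muscle and collagen RNA, and the 12-week replicate 4 lay apart on the second component (-51.5, against 8.9 to 16.2 for the other 12-week libraries). Without these 3 libraries 2232 genes were called higher and 1165 lower. Mitochondrially encoded genes took 7.3% to 15.1% of counts at 2 weeks and 4.84% to 5.46% at 12 weeks. A scaling computed without mitochondrial, histone, immunoglobulin and ribosomal protein genes together called 2210 genes higher and 1100 lower; the part of the mitochondrial genes alone was not tested. The epithelial adhesion gene Epcam read 1634, 1593, 1679 and 1607 CPM at 2 weeks and 1352, 1254, 1423 and 1323 CPM at 12 weeks and was not called (log2 fold change -0.28, adjusted p = 0.052). All 4 of the 12-week libraries lay below the 2-week ones by a small margin, and both groups held epithelial RNA.

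Hox genes of the Hoxb and Hoxd clusters changed in opposite directions by their position, and in the Hoxa cluster none was called lower. Of 29 listed genes 20 were tested, 5 were called higher (Hoxb13, Hoxd13, Hoxa13, Hoxa10 and Hoxd10) and 9 lower (Hoxb3 to Hoxb9, Hoxd4 and Hoxd8). The number higher rose to 10 of 22 without the 2-week replicate 3 and to 8 of 22 without the 12-week replicate 4, with 9 lower in both. Hoxb13, the most 5′ gene of its cluster (mm10 chr11:96194316-96197447, plus strand), was at 1.54, 1.4, 5.54 and 8.59 CPM at 2 weeks and at 431, 381, 510 and 473 CPM at 12 weeks. That was a 104-fold difference (log2 fold change 6.71, SE 0.54, adjusted p = 2.7e-05), with every 12-week library far above every 2-week library. Hoxd13 (mm10 chr2:74668310-74671599) read 0, 0.0777, 0.088 and 0.131 CPM at 2 weeks and 113, 111, 139 and 8.21 CPM at 12 weeks (log2 fold change 10.13, SE 1.18, adjusted p = 1.9e-04). limma-voom did not call Hoxd13 or Hoxd10 (adjusted p = 0.072 and 0.13). The 12-week replicate 4 was the low one, and it was also the only 12-week library in which Hoxd10 stayed within the 2-week range, at 0.714 CPM against 6.81, 12 and 16.8 CPM. Hoxa13 rose 5.78-fold, from 4, 4.98, 18.7 and 6.03 CPM to 47.2, 44.3, 56.6 and 44 CPM (adjusted p = 0.0014). The 2-week replicate 3 was the highest of its group for Hoxa13, and for Hoxa10 (27.2 CPM) it came close to the 12-week libraries (29.3 to 35.8 CPM). The call of Hoxa10 (2.8-fold, adjusted p = 0.031) was lost without the 2-week replicate 1, 2 or 4 or the 12-week replicate 1, 2 or 3, with adjusted p from 0.054 to 0.079.

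**Figure D1:**
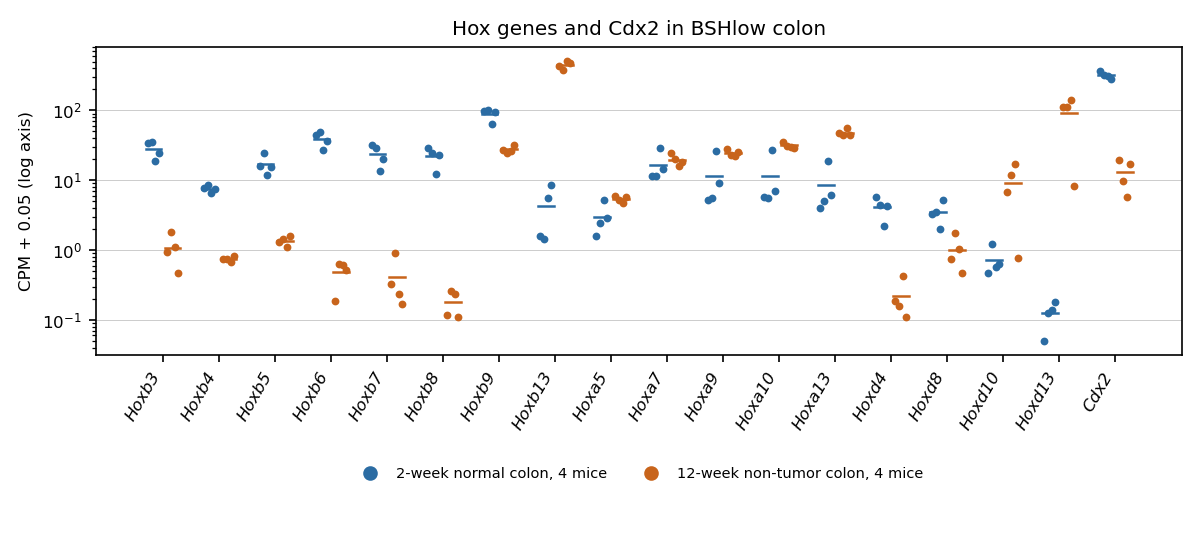
Hox genes, ordered within their clusters, and Cdx2 in the 8 BSHlow libraries, as CPM plus 0.05 on a log axis. Points are single libraries and short lines are group means. Hoxb3 to Hoxb8 sit above 6 CPM at 2 weeks and below 2 CPM at 12 weeks, while Hoxb13 lies above 380 CPM in every 12-week library.

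The middle of the Hoxb cluster showed the reverse. Hoxb8 fell from 29.1, 24.2, 12.2 and 22.8 CPM to 0.0688, 0.213, 0.186 and 0.0595 CPM (154-fold, adjusted p = 5.4e-06). Hoxb6 was 85.5-fold lower, with 44.2, 48.8, 27.2 and 36.3 CPM at 2 weeks and 0.138, 0.585, 0.557 and 0.476 CPM at 12 weeks (adjusted p = 2.8e-06). Hoxb9, which lies nearest to Hoxb13, was lower by a smaller factor of 3.26, from 98.9, 101, 63.8 and 95.4 CPM to 27.5, 24.5, 26.6 and 31.7 CPM (adjusted p = 5.4e-05). None of these groups overlapped. In the Hoxa cluster Hoxa5, Hoxa7 and Hoxa9 were not called, at log2 fold changes of 0.86, 0.25 and 1.09 (adjusted p = 0.062, 0.52 and 0.083).

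Cdx2, the intestinal homeobox factor that is usually highest in the proximal colon and whose promoter drives Cre in these mice, was much lower at 12 weeks (mm10 chr5:147300805-147307270, minus strand). It read 370, 317, 310 and 286 CPM at 2 weeks and 19.2, 9.57, 5.76 and 17.3 CPM at 12 weeks, a 24.8-fold difference (log2 fold change -4.63, SE 0.35, adjusted p = 1.9e-05). With scaling to 6 epithelial genes its log2 fold change was -4.4. Isx, an intestine-specific homeobox repressor of vitamin A uptake, moved the same way, from 183, 135, 104 and 107 CPM to 4.61, 0.851, 0.248 and 2.74 CPM (64.2-fold lower, adjusted p = 7.8e-05). Apc itself was at 120, 64.8, 99.3 and 127 CPM and at 114, 104, 173 and 83.3 CPM, and was not called (log2 fold change 0.21, adjusted p = 0.54). The Hox genes differed between the same 2 groups as the epithelial genes described here. The part of the Hox genes in the epithelial differences was not tested.

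Cdx2 protein binds A/T-rich sites in promoters of intestinal genes. The 250 bases upstream of the RefSeq start (GRCm38.p6) of Slc10a2, Sis and Fabp2, 3 genes that fell at 12 weeks, are shown because each holds TTTATNG, a CDX-like sequence, on either strand; matches are in capitals and overlap no other motif searched. The genes were picked for holding it. Among all genes with a promoter in the RefSeq set 11.3% hold the motif in this window, as do 11.2% of genes called lower, 10.6% of those called higher and 7.04% of those not called. The matches are descriptions of sequence and not binding sites. Slc10a2 lies at chr8:5105288-5105537 (minus strand; the GENCODE gene start falls inside the window), Sis at chr3:72967864-72968113 (minus strand) and Fabp2 at chr3:122894822-122895071 (plus strand).
Slc10a2: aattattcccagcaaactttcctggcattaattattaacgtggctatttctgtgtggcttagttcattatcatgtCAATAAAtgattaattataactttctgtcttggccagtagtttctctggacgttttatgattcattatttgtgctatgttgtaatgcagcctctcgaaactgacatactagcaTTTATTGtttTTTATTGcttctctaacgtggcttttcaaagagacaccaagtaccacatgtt
Sis: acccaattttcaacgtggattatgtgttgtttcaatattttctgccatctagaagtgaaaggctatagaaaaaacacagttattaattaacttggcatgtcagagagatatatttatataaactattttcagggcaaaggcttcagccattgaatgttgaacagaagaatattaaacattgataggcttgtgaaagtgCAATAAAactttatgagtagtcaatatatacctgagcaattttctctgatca
Fabp2: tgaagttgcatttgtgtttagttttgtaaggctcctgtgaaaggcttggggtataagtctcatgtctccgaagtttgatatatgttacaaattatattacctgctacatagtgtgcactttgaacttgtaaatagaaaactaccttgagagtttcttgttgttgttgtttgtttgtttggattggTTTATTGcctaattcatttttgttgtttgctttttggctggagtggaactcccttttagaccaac

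Genes of bile acid uptake, sensing and export were lower at 12 weeks. Of 17 listed genes 11 were tested, 6 were called lower and 0 higher, with a median log2 fold change of -1.60. Slc10a2, the apical sodium-dependent bile acid transporter, read 727, 508, 242 and 498 CPM at 2 weeks and 4.54, 3.62, 20.5 and 14 CPM at 12 weeks (46.4-fold lower, adjusted p = 1.6e-04). Slc51a (mm10 chr16:32474504-32487879), a subunit of the basolateral exporter OST, had 360, 354, 176 and 289 CPM and then 0.0688, 0.106, 0.0619 and 0.179 CPM. It showed the largest fitted fall of the genes named here (log2 fold change -11.34, SE 0.38, adjusted p = 7.0e-07), ending at 1 to 3 counts a library.

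The other members called lower fell by less. Slc51b, the partner subunit of OST, went from 95.1, 89.2, 47.9 and 56.9 CPM to 4.13, 4.2, 3.22 and 13.5 CPM (11.5-fold lower, adjusted p = 3.7e-04). Fabp6, the ileal bile acid binding protein, was at 18.5, 21.8, 4.93 and 23.6 CPM and at 1.58, 4.09, 3.28 and 2.68 CPM (5.88-fold lower, adjusted p = 0.0021), with the 2-week replicate 3 close to the 12-week libraries. Nr1h4, which encodes FXR, read 161, 107, 84.7 and 128 CPM and 48.5, 32.6, 34 and 43.6 CPM (3.03-fold lower, adjusted p = 3.5e-04). Vdr, a receptor for vitamin D and for lithocholic acid, was 1.89-fold lower without overlap but did not reach the fold limit (log2 fold change -0.92, adjusted p = 4.5e-04). Of the other tested members not called, Nr1i2 stood at a log2 fold change of -0.35, Abcc2 at 0.11 and Nr1i3 at 1.24 (adjusted p = 0.049, 0.88 and 0.19). Cyp27a1, a mitochondrial sterol hydroxylase of bile acid synthesis, was higher in all 4 of the 12-week libraries and did not reach the fold limit (log2 fold change 0.74, adjusted p = 0.036). Gpbar1, the membrane bile acid receptor, did not pass the filter on low counts, with at most 0.691 CPM in any of these libraries. With scaling to 6 epithelial genes 6 members were still called lower, and Slc10a2 and Slc51a stood at log2 fold changes of -5.38 and -11.14.

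**Figure D2:**
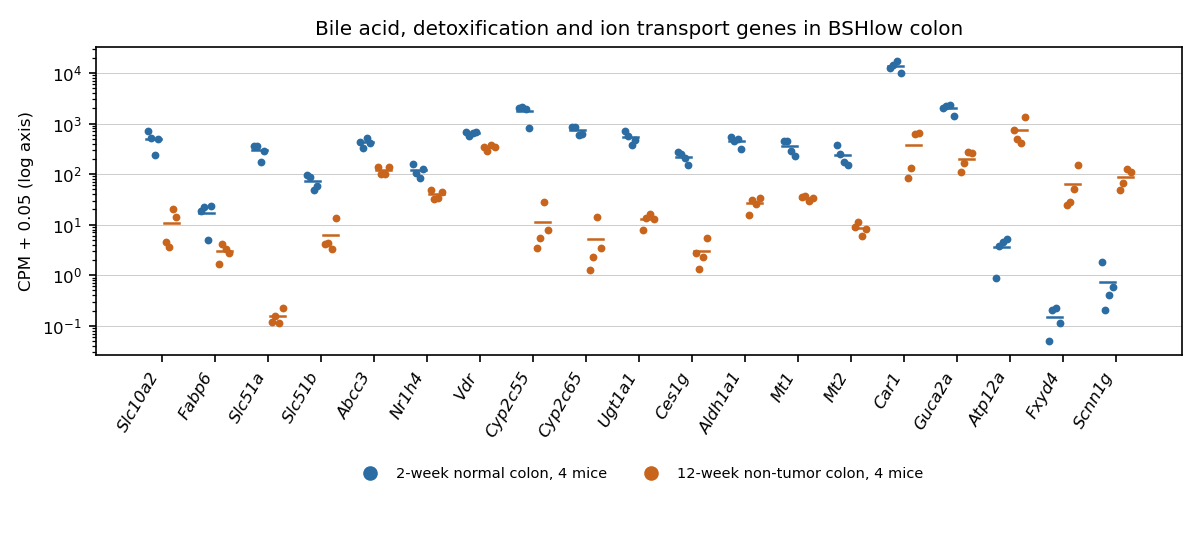
Bile acid, detoxification and ion transport genes in the 8 BSHlow libraries, as CPM plus 0.05 on a log axis, with single libraries as points and group means as lines. Slc51a sits between 176 and 360 CPM at 2 weeks and below 0.2 CPM at 12 weeks, and Atp12a, Fxyd4 and Scnn1g are higher in all 4 of the 12-week libraries.

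Detoxifying enzymes and metal-binding proteins followed. Of 25 tested members of the xenobiotic list 13 were called lower and 2 higher, the latter falling to 1 without the 2-week replicate 4 or the 12-week replicate 1. Cyp2c55, a cytochrome P450 of the colon, was at 2060, 2107, 1961 and 821 CPM at 2 weeks and at 3.37, 5.48, 27.5 and 7.85 CPM at 12 weeks (157-fold lower, adjusted p = 9.7e-05). Ugt1a1, which conjugates bilirubin and drugs, read 716, 561, 374 and 476 CPM and 7.91, 13.6, 16.3 and 12.6 CPM (42.1-fold lower, adjusted p = 3.7e-06); it shares exons with other Ugt1a genes, so the split between them is uncertain. Ces1g, a carboxylesterase, fell 75.7-fold, from 278, 246, 205 and 152 CPM to 2.68, 1.28, 2.23 and 5.47 CPM (adjusted p = 9.9e-06). The family did not move as one: Cyp2c68 was 14.9-fold higher, at 7.72, 15.8, 8.89 and 6.43 CPM and then 143, 118, 182 and 134 CPM (adjusted p = 1.4e-05), while its near copy Cyp2c66 had 0 counts in every 12-week library and was at least 74.8-fold lower. Reads of these near copies were shared in part by the counting.

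The metallothioneins, cysteine-rich proteins that bind zinc and copper, fell in parallel. Mt1 read 451, 455, 287 and 227 CPM at 2 weeks and 35.8, 36.3, 29.3 and 33.9 CPM at 12 weeks (10.5-fold lower, adjusted p = 1.2e-05). Mt2 read 368, 250, 173 and 150 CPM and 9.14, 11.2, 6 and 7.97 CPM (27.3-fold lower, adjusted p = 1.2e-05). Neither pair of groups overlapped. The neighboring promoters are shown because the pair moved together. Capitals mark TGCNCNC on either strand, a pattern looser than the core of the metal response element, so a match need not be that core. Of all RefSeq promoters 47.2% hold TGCNCNC in the same 250 bases, as do 55.2% of those of genes called lower and 56.9% of those not called. Mt2 has 5 matches (chr8:94172368-94172617, plus strand) and Mt1 has 1 (chr8:94178839-94179088, plus strand), in GRCm38.p6.
Mt2: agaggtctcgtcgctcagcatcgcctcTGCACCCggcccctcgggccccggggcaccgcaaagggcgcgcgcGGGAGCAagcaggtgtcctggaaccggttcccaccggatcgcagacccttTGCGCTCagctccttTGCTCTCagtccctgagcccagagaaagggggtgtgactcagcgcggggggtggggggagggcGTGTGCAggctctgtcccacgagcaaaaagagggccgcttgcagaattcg
Mt1: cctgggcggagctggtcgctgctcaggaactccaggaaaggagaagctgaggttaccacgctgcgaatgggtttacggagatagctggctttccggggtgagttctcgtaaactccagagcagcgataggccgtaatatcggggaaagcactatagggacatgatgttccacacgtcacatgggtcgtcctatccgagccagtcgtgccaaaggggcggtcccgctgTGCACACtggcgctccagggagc

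Ion transport genes changed in both directions. Of 28 tested absorptive colonocyte genes 9 were called lower and 5 higher, beside 7.59% lower and 15.1% higher among all genes tested. The number higher was near that share. Car1, carbonic anhydrase 1 (mm10 chr3:14766216-14808368), was at 12370, 14264, 17246 and 9993 CPM at 2 weeks and at 85.5, 130, 614 and 652 CPM at 12 weeks (36.4-fold lower, adjusted p = 4.5e-04). Guca2a, which encodes guanylin, fell 10-fold, from 2008, 2246, 2364 and 1434 CPM to 110, 165, 268 and 259 CPM (adjusted p = 5.7e-05). Slc9a3, the sodium-hydrogen exchanger NHE3, read 306, 109, 184 and 158 CPM and 11.3, 10.5, 8.35 and 36.1 CPM (11.4-fold lower, adjusted p = 6.6e-04). The brush border phosphatase gene Alpi was 48.2-fold lower (adjusted p = 1.8e-05), with 74.9 to 94.6 CPM at 2 weeks and at most 3.69 CPM at 12 weeks.

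The genes that rose included all 3 subunits of the epithelial sodium channel. Scnn1g went from 1.76, 0.155, 0.352 and 0.525 CPM to 49, 65.8, 124 and 109 CPM (119-fold, adjusted p = 2.3e-05), and Scnn1b from 2.8 to 6.53 CPM up to 35.9 to 68.2 CPM (9.82-fold, adjusted p = 4.2e-05). Scnn1a rose 2.32-fold (adjusted p = 0.0011). Atp12a, the colonic proton-potassium pump (mm10 chr14:56365068-56388550), read 0.843, 3.65, 4.49 and 5.05 CPM and then 750, 503, 421 and 1372 CPM (217-fold, adjusted p = 2.3e-05). Fxyd4, a regulator of ion pumps, was at 0, 0.155, 0.176 and 0.0656 CPM and at 24.1, 28.3, 50.6 and 152 CPM (log2 fold change 9.3, SE 0.98, adjusted p = 1.1e-04). The 12-week replicate 4 was the highest for both pump genes. Lypd8, which keeps flagellated bacteria off the colon surface, was high in every library, between 6831 and 14046 CPM, and did not reach the fold limit (log2 fold change 0.56).

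Genes of fatty acid oxidation and ketone synthesis were lower or did not pass: 7 of 22 tested members were called lower and 0 higher. Without the 12-week replicate 4, whose summed level of the list was 4112 CPM against 1649 CPM in the lowest 12-week library, 11 were lower. Ppara, a nuclear receptor that drives fatty acid oxidation, fell 12-fold, from 48, 43, 31.1 and 55.4 CPM to 5.16, 3.14, 1.49 and 5 CPM (adjusted p = 7.1e-05). Fabp2, an intestinal fatty acid binding protein, fell 82.9-fold (573 to 1785 CPM against 9.9 to 23.4 CPM, adjusted p = 1.6e-05). Sucrase-isomaltase (Sis), from the list of small intestine genes, was 167-fold lower, with 13.6 CPM in the 2-week replicate 3 and 87.4 to 117 CPM in the other 2-week libraries (adjusted p = 9.6e-05). On that list 6 of 10 tested members were called lower and 0 higher, but 3 without the 2-week replicate 2 or the 12-week replicate 3. Cholesterol synthesis showed 0 called genes among 20 tested by edgeR, 1 lower without the 2-week replicate 2 and 3 lower without the 12-week replicate 4.

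**Figure D3:**
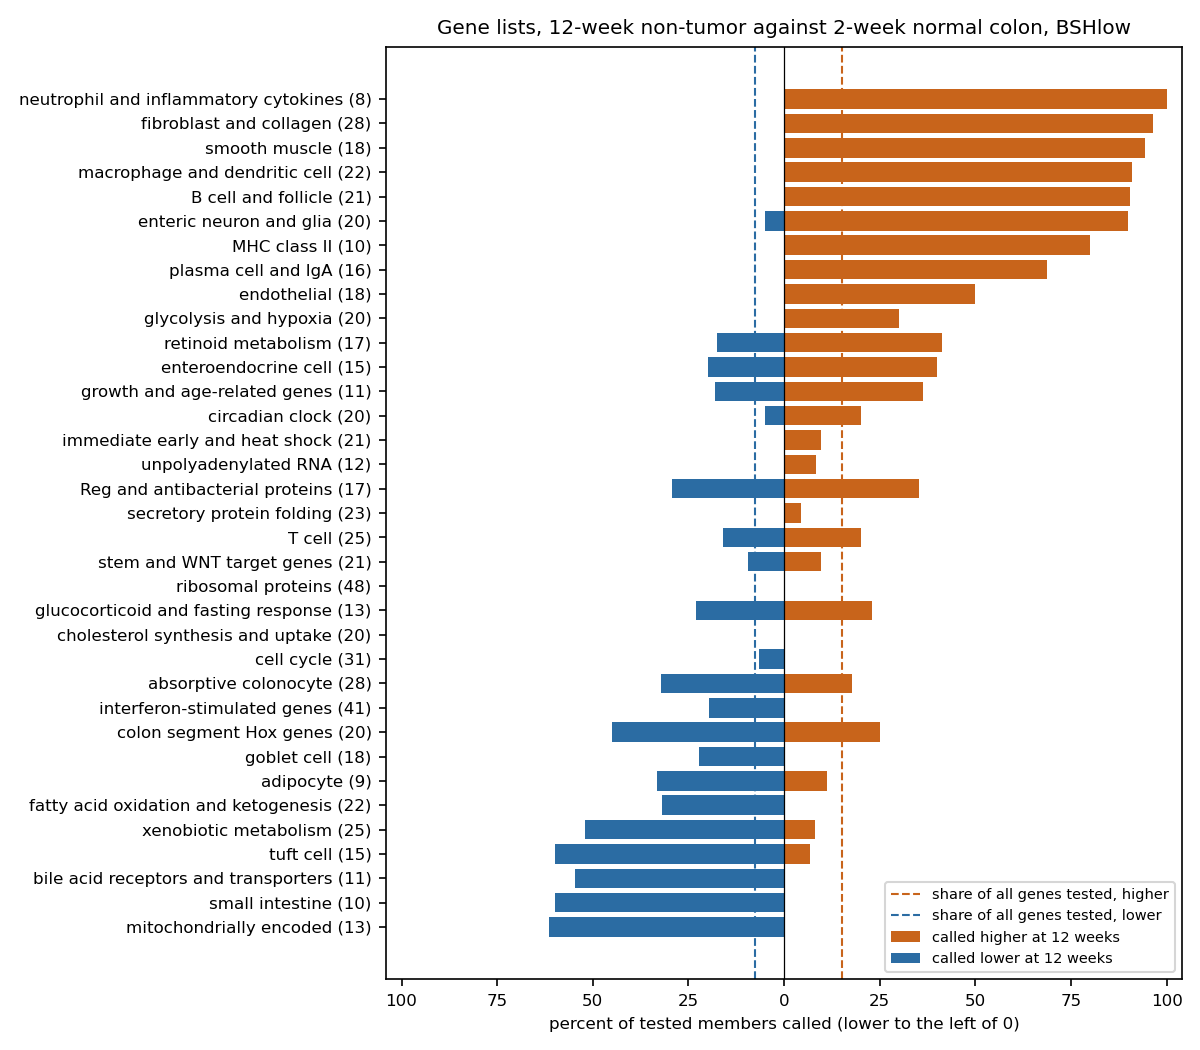
Percent of tested members called higher (right) or lower (left) at 12 weeks in BSHlow mice for the 35 gene lists with at least 8 tested members, whose number is in brackets; dashed lines are the shares among all genes tested, 15.1% and 7.59%. Stromal and myeloid lists lie far to the right, and bile acid, tuft cell and mitochondrial lists to the left.

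Secretory and sensory cell genes were mixed. Of 18 goblet cell genes 4 were called lower and 0 higher, beside 7.59% and 15.1% of all genes tested. Muc2, the main mucin of the colon, was 3.6-fold lower, with 5439, 4686, 7459 and 8888 CPM at 2 weeks and 2266, 1798, 1525 and 1760 CPM at 12 weeks (adjusted p = 3.0e-04). Tff3, the trefoil peptide of goblet cells, was higher in all 4 of the 12-week libraries but did not reach the fold limit (log2 fold change 0.96, adjusted p = 0.0024). Retnlb, an antibacterial goblet cell protein, fell from 132, 341, 474 and 231 CPM to 13.3, 6.54, 0.124 and 2.44 CPM (52.9-fold, adjusted p = 7.9e-04).

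Genes of tuft cells, the chemosensory cells of the epithelium, were lower for 9 of 15 tested, and 1 was higher. Trpm5, their taste-signaling channel, read 30.3, 36.1, 22.6 and 24.7 CPM at 2 weeks and 4.95, 2.92, 2.54 and 7.68 CPM at 12 weeks (6.29-fold lower, adjusted p = 3.0e-04). In whole tissue fewer cells of a type and less RNA per cell cannot be told apart. Among 15 tested enteroendocrine genes 6 were higher and 3 lower, beside 15.1% and 7.59% of all genes tested. Nts (neurotensin) fell 201-fold, from 83.2, 83, 19.7 and 39.1 CPM to 0.344, 0.106, 0.248 and 0.417 CPM (adjusted p = 2.8e-05), and Sct (secretin) 20-fold (adjusted p = 3.5e-06). Insl5, the hormone of distal colonic L cells, rose 9.11-fold, from 3.79, 4.82, 8.89 and 4.07 CPM to 52.4, 45.5, 27.5 and 69.3 CPM (adjusted p = 1.3e-04), and Pyy 2.26-fold (adjusted p = 8.7e-04).

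Antibacterial proteins split as well, with 6 of 17 tested genes higher and 5 lower, beside 15.1% and 7.59% of all genes tested. Reg3b, a lectin of the intestinal defense, was at 3454, 210, 117 and 888 CPM at 2 weeks and at 0.825, 0.691, 4.83 and 0.298 CPM at 12 weeks (log2 fold change -9.46, SE 1.45, adjusted p = 8.2e-04). Its 2-week libraries spread widely, and none came near the 12-week ones. Slpi, a protease inhibitor of mucosal surfaces, rose from 1.12, 1.32, 0.616 and 1.77 CPM to 42.9, 40.7, 18.9 and 6.01 CPM (21.9-fold, adjusted p = 5.5e-04). Nos2, the inducible nitric oxide synthase, rose 12.9-fold, from 0.702, 0.544, 1.58 and 0.721 CPM to 9.14, 9.36, 14.5 and 12.4 CPM (adjusted p = 6.0e-05).

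Most listed muscle, nerve and connective tissue genes were higher at 12 weeks. Of 18 smooth muscle genes 17 were called higher and 0 lower, with a median log2 fold change of 4.82. Myh11, the smooth muscle myosin (mm10 chr16:14194535-14291372), read 11.3, 32.8, 12.1 and 10 CPM at 2 weeks and 391, 1565, 947 and 317 CPM at 12 weeks (48.7-fold, adjusted p = 2.1e-04). The lowest 12-week library was still well above the highest 2-week one. Summed over the list, smooth muscle genes came to 274 to 468 CPM at 2 weeks and 2255 to 11636 CPM at 12 weeks, with 12-week replicate 2 highest and replicate 4 lowest.

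Of 20 enteric neuron and glia genes 18 were higher and 1, Chat, lower. Vip, a peptide of inhibitory motor neurons, was at 1.12, 1.01, 0 and 0.0656 CPM and at 14.7, 35, 15.2 and 25.3 CPM (39.9-fold, adjusted p = 3.3e-04). Chat, which makes acetylcholine in neurons and also in tuft cells, was at 0.843, 2.18, 0.968 and 1.05 CPM and at 0.275, 0.478, 0.186 and 0.655 CPM (3.08-fold lower, adjusted p = 0.023). Without the 2-week replicate 2 the adjusted p of Chat was 0.068, and it was 0.062 without 12-week replicate 1 and 0.059 without 12-week replicate 3. Among 5 tested genes of the interstitial cells of Cajal, the pacemakers of gut muscle, 4 were higher, and 2 without the 12-week replicate 2; Ano1, their chloride channel, which other cells also use, rose 10.1-fold (18.3 to 34 CPM against 228 to 295 CPM, adjusted p = 1.1e-05), and Kit was not called (log2 fold change -0.51).

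Of 28 fibroblast and matrix genes 27 were higher, with a median log2 fold change of 2.96. Fn1 (fibronectin) was at 4.77, 5.29, 16.5 and 12.7 CPM and at 166, 883, 317 and 116 CPM (37.8-fold, adjusted p = 6.0e-04). Col1a1, the main chain of type I collagen, was at 6.32, 4.98, 21.9 and 19.5 CPM and at 91.7, 472, 125 and 33.7 CPM (13.7-fold, adjusted p = 0.0055). The 12-week replicate 2 was the highest and replicate 4 the lowest for both. Grem1, a BMP antagonist of the stroma beneath the crypts, rose 26.3-fold (adjusted p = 3.4e-04). For endothelial genes 9 of 18 were higher, a count that depended on single libraries: it was 15 without the 2-week replicate 3, 4 without the 2-week replicate 2 or the 12-week replicate 2, 5 without the 2-week replicate 1 or 4 or the 12-week replicate 3, and 13 without the 3 libraries that stood apart; Lyve1, the lymphatic marker, rose 8.42-fold, from 1.63 to 3.48 CPM to 18.5 to 23.6 CPM (adjusted p = 1.2e-05). Without those 3 libraries 15 of 18 smooth muscle, 15 of 20 neural and 27 of 28 fibroblast genes were called higher. The macrophage and B cell lists below were also higher at 12 weeks, while the T cell sums of the groups overlapped. The part of the stromal change in the immune results was not tested.

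**Figure D4:**
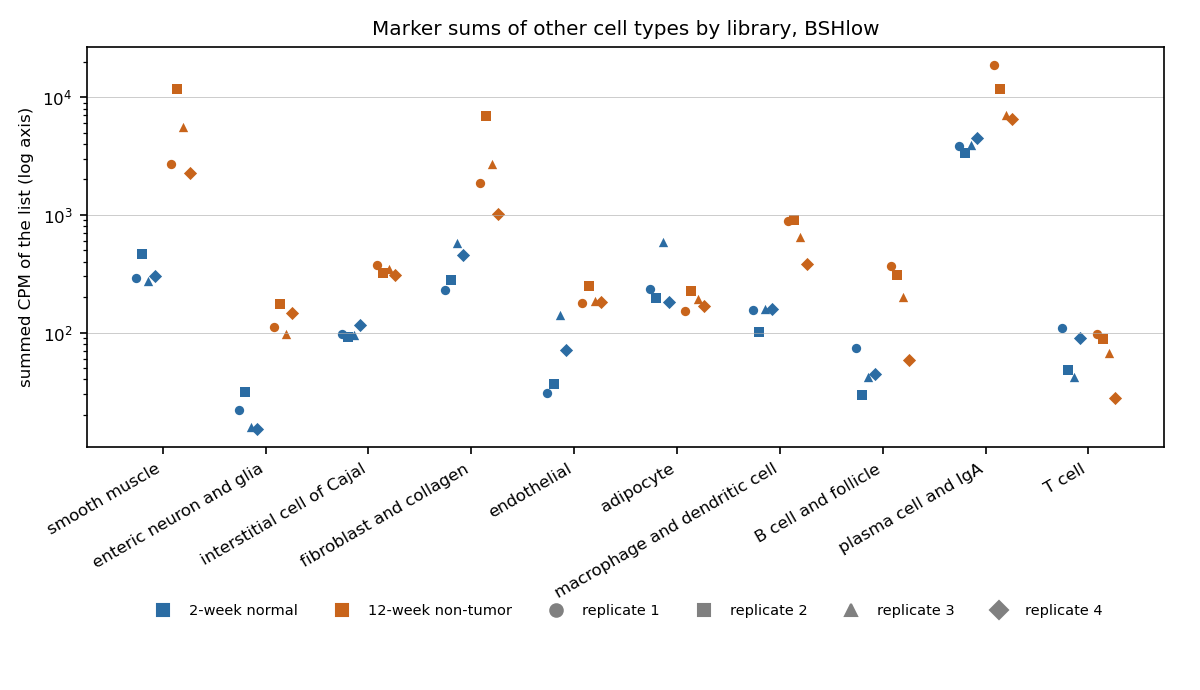
Summed CPM of marker lists of other cell types on a log axis, for each BSHlow library, with the marker shape giving the replicate. Smooth muscle reaches 11636 CPM in 12-week replicate 2, the adipocyte sum is highest in 2-week replicate 3 (594 CPM), and the T cell sums of the groups overlap.

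Macrophage and dendritic cell genes were higher for 20 of 22 tested. Csf1r, the receptor that maintains macrophages, was at 4.63, 2.41, 5.98 and 4.92 CPM at 2 weeks and at 36.6, 41.5, 33.4 and 10.2 CPM at 12 weeks (6.79-fold, adjusted p = 9.0e-04). B cell genes were higher for 19 of 21 tested: Ms4a1, the CD20 antigen, read 2.46, 0.233, 0.352 and 0.787 CPM and 30.7, 21.3, 13.6 and 2.56 CPM (17.2-fold, adjusted p = 0.0036). The 12-week replicate 4 was near the 2-week range, and limma-voom called 5 of the 21 genes, without Ms4a1 (adjusted p = 0.071). Igha, the heavy chain of IgA, was at 331, 294, 542 and 541 CPM and at 6849, 2970, 1433 and 463 CPM (6.86-fold, adjusted p = 0.0097), and here replicate 4 lay inside the 2-week range. Pigr, the receptor that carries IgA across the epithelium, was 2.03-fold higher (adjusted p = 0.0014), and leaving out the 2-week replicate 2 or 3 or the 12-week replicate 1 or 2 took its log2 fold change to 0.93 to 0.99, under the limit. Ccl28, the epithelial chemokine that draws IgA plasma cells and regulatory T cells, rose 3.72-fold, from 65, 72.8, 65.4 and 76.1 CPM to 315, 290, 197 and 236 CPM (adjusted p = 2.5e-05).

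T cell genes did not move together: 5 of 25 tested were higher and 4 lower, beside 15.1% and 7.59% of all genes tested. The number higher was 8 of 28 without the 12-week replicate 4, 3 of 26 without the 12-week replicate 1 and 1 with limma-voom. Cd4, the helper T cell coreceptor that some myeloid cells also carry, was at 1.06 to 1.25 CPM at 2 weeks and at 10.7, 7.66, 5.57 and 1.55 CPM at 12 weeks (5.49-fold, adjusted p = 0.0039; limma-voom adjusted p = 0.051). Cd8a, of cytotoxic T cells, fell from 10, 2.72, 2.9 and 8.98 CPM to 2.13, 1.44, 0.928 and 0.536 CPM (4.92-fold, adjusted p = 0.0087), and Gzma, a granzyme, fell 15.5-fold (2.29 to 11.9 CPM against 0.266 to 0.55 CPM, adjusted p = 4.8e-04). Foxp3, the factor of regulatory T cells, did not pass the count filter; it read 0.14, 0, 0 and 0.0656 CPM and 1.38, 0.957, 0.619 and 0.179 CPM, a ratio of 13.8 (95% counting interval 4.71 to 66.8). Ly6g (mm10 chr15:75155240-75159126), best known as a neutrophil surface protein, rose from 0.843, 1.32, 2.11 and 5.38 CPM to 144, 129, 173 and 162 CPM (61.6-fold, adjusted p = 1.8e-05). On the neutrophil and cytokine list 18 of the 26 genes did not pass the count filter, so that its 8 called members are no measure of the list.

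Interferon-stimulated genes were lower for 8 of 41 tested and higher for 0, beside 7.59% and 15.1% of all genes tested. Irf7, a regulator of the interferon response, fell from 219, 154, 180 and 254 CPM to 53.1, 61.1, 50.1 and 36.7 CPM (4.01-fold, adjusted p = 7.3e-05). Ifit1, an inhibitor of foreign RNA translation, was at 35, 47.9, 22.9 and 140 CPM and at 9.63, 5.8, 3.77 and 5.71 CPM (9.92-fold, adjusted p = 0.0015). The 2-week replicate 4 had the highest sum of the list (2536 CPM, against 603 to 1001 CPM at 12 weeks), and without it 4 of 42 genes were lower and 1 higher. The number lower was also 4 without the 12-week replicate 3, and it was 14 of 43 without the 2-week replicate 3. In BSHhigh mice 22 of 43 were lower and 0 higher; no member differed between the 2 changes by the interaction test described below.

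WNT target and stem cell genes showed little common movement, with 2 of 21 tested higher and 2 lower (1 lower without the 2-week or the 12-week replicate 2). The shares among all genes tested were 15.1% higher and 7.59% lower. Axin2, a direct WNT target, was at 20.6, 21, 24.8 and 29.1 CPM and at 23.2, 24.7, 28.5 and 21.1 CPM (log2 fold change 0.03, adjusted p = 0.88). Myc and Ccnd1 were not called (log2 fold changes 0.24 and -0.36). Mmp7 was not called and split by library, with 4.56, 4.28, 1.67 and 3.48 CPM at 2 weeks and 0.413, 0.691, 0.309 and 10.9 CPM at 12 weeks. Without the 12-week replicate 4 Mmp7 was called lower (log2 fold change -2.85, adjusted p = 0.0013), and also without the 3 libraries that stood apart (-3.49, adjusted p = 0.00095). The 12-week replicate 4 also held the highest levels of the WNT inhibitors Wif1 (14.4 CPM) and Notum (5.47 CPM), whose other 12-week values ran to 4.04 and 0.372 CPM. Nkd1, another WNT feedback gene, rose 7.77-fold (1.05 to 1.64 CPM against 4.54 to 15.4 CPM, adjusted p = 3.6e-04). Cell cycle genes were called lower for 2 of 31 and higher for 0; the number lower was 0 without the 2-week replicate 3, 1 without the 2-week replicate 1 or the 12-week replicate 2 or 4, 4 without the 2-week replicate 2 and 6 without the 12-week replicate 3. Their log2 fold changes were all below 0, and for 10 of the 31 all 4 libraries at 12 weeks lay below all 4 at 2 weeks. Among all genes tested that share was 19.6%, while 7.59% were called lower and 15.1% higher. Of 48 ribosomal protein genes 0 were called in either direction by edgeR or under any alternative.

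Several single genes had almost no reads in one group. Tmprss13, a membrane serine protease of epithelia (mm10 chr9:45319100-45347581), had 0 counts in every 2-week library and 18.7, 12.7, 18.4 and 11.5 CPM at 12 weeks, at least 67.7-fold higher against 3 counts a library. Casp14, a caspase of cornifying epithelium, had 2 libraries at 0 and the others at 0.0702 and 0.0777 CPM, then 46.9, 64, 83.1 and 42.2 CPM, a ratio of 1595 (95% counting interval 442 to 13170). Gpr83, a G-protein-coupled receptor, went from 0 in all 4 to 3.92, 3.77, 3.96 and 4.46 CPM, at least 17.8-fold.
In the other direction, Abca12, a lipid transporter, was at 122, 102, 210 and 146 CPM at 2 weeks and at 0.138, 0.0532, 0 and 0.0595 CPM at 12 weeks (log2 fold change -11.04, SE 0.42, adjusted p = 8.8e-07). Ugt2b5, a glucuronosyltransferase, read 113, 122, 48.9 and 71.8 CPM and 0.0688, 0, 0 and 0.119 CPM, a ratio of 1983 (679 to 9618). Zbtb16, a zinc-finger transcription factor, rose 69.2-fold, from 0.0702 to 0.44 CPM to 12 to 19.9 CPM (adjusted p = 1.2e-05).

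The same comparison in BSHhigh mice, which were separate animals, called 2334 genes higher (15.9%) and 1074 lower (7.34%) of 14638 tested. Of 14272 genes tested in both, 1806 were called higher in both and 797 lower in both. A test of the difference between the changes (edgeR quasi-likelihood, interaction term) called 0 of 15532 genes (0%), with 1135 (7.31%) at an unadjusted p under 0.05. The simulated data held a log2 change of 2, up or down, in a few genes and no other change between groups. In them this test recovered 63.8% of the changes put in, against 88% for the BSHlow comparison. Smaller changes were not simulated. The absence of calls therefore does not show that the changes were alike. limma-voom also called 0, whereas DESeq2 and the edgeR likelihood ratio test each called 26, of which 20 were shared, and the count without the BSHhigh 2-week replicate 3 was 4. The log2 fold changes in BSHlow and BSHhigh were -11.34 and -9.78 for Slc51a, -4.63 and -3.78 for Cdx2, and 5.61 and 5.05 for Myh11. In BSHhigh mice 17 of 18 smooth muscle and 27 of 28 fibroblast genes were higher, 8 of 11 bile acid genes were lower, and 3 Hox genes were higher and 9 lower.

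**Figure D5:**
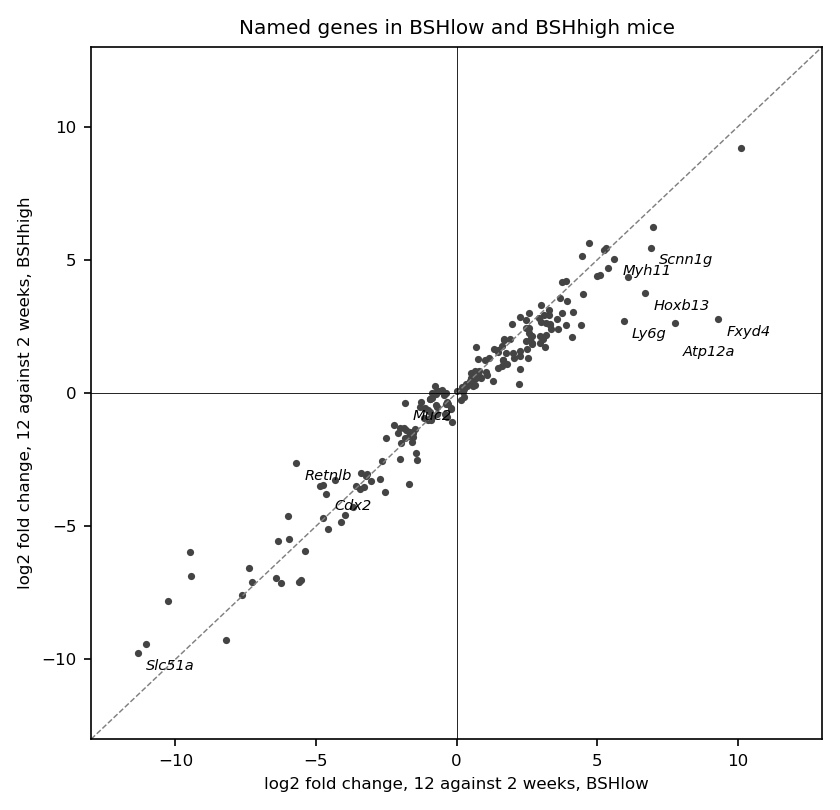
Log2 fold change, 12 against 2 weeks, in BSHlow (x) and BSHhigh (y) mice for the 196 named genes tested in both whose groups all held more than 3 counts; the dashed line is equality. Most genes lie along the line, and Hoxb13, Ly6g, Atp12a and Fxyd4 lie below it.

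Fxyd4, Atp12a, Reg4, Hoxb13 and Muc2 are given side by side; Reg4 was chosen after its values were seen. Fxyd4 rose by 9.3 on the log2 scale in BSHlow and 2.78 in BSHhigh (difference -6.53, SE 1.32, adjusted p = 0.29), and the BSHhigh 2-week libraries read 3.27, 1.83, 4.32 and 0.143 CPM. Atp12a rose by 7.76 and 2.63 (difference -5.14, SE 1.11, adjusted p = 0.3), with BSHhigh 2-week levels of 240, 34.2, 75.5 and 5.17 CPM. Reg4, a lectin of goblet and endocrine cells, was not called in BSHlow (181, 362, 461 and 196 CPM against 383, 378, 327 and 320 CPM) and rose in BSHhigh by 3.37 (difference 3.13, SE 0.52, adjusted p = 0.11). DESeq2 and the likelihood ratio test called these 3 differences, with adjusted p = 3.6e-06 and 4.6e-05 for Reg4, 0.00046 and 5.8e-05 for Fxyd4 and 0.0072 and 0.0036 for Atp12a, while limma-voom called none of them (adjusted p = 0.23, 0.8 and 0.71). Hoxb13 was at 54.5, 4.58, 51.4 and 1.87 CPM in the 2-week BSHhigh libraries, with replicates 1 and 3 above every 2-week BSHlow library and the other two within or near their range. Muc2 fell in BSHlow (log2 fold change -1.85) and was not called in BSHhigh (-0.39, adjusted p = 0.31), and the difference of 1.45 was not called (adjusted p = 0.43).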

How the data were processed

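The authors deposited RSEM expected counts per gene, after trimming with cutadapt and alignment to mm10 with STAR per the labels (Picard is also named); versions are not given in the sources used here. The labels name a stranded total RNA kit and the paper a stranded mRNA kit. Of 55450 gene rows, 1 (Fgf6) was left out because a cell held text, and the 7 tumor columns were not used. Expected counts were rounded (4.133% were not whole). Library totals were 12401365 to 17103200. Each group had 4 libraries, and the labels do not say which mice shared a cage, so p-values measure the spread between these libraries. Counts were tested with edgeR 4.0.16 in R 4.3.3 (filterByExpr, TMM, glmQLFit and glmQLFTest; adjusted p under 0.05 and a log2 fold change past 1). Ratios at 1 to 3 counts carry 95% intervals, and floors are 3 counts a library; both cover counting error only. Coordinates are from GENCODE M21, whose IDs matched 55449 rows, and promoters from RefSeq GRCm38.p6, searched on both strands.

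Genes were named by a rule: up to 12 a direction by largest change among non-overlapping calls with a mean of at least 1 CPM, 4 a list by smallest p, all Hox and clock genes, and genes followed in the study; a rule for differences between BSHhigh and BSHlow named none. Some named genes are not reported here. Genes outside it, chosen after their values were seen, were Car1, Guca2a, Slc9a3, Scnn1a, Lypd8, Slc51b, Cyp27a1, Abcc2, Nr1i2, Nr1i3, Cyp2c55, Tff3, Pyy, Col1a1, Csf1r, Igha, Chat, Cd8a, Wif1, Notum, Epcam, Reg4, Actg2, Des, Lgr5, Cyp2c65 and Adipoq. The members and all 41 lists were chosen with earlier results of these data known. Alternatives used DESeq2 1.42.0, limma 3.58.1, other scalings and filters, and left-out libraries. The fit was tested on simulated data.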

Additional observations from a re-analysis of the deposited data

Results flagged for a closer look

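Among the named genes, 21 of 272 groups of 4 libraries with at least 1 CPM had 1 library whose gap to the next, as a share of the group's range, exceeded Dixon's 95% limit, which chance exceeds in about 1 group of 20. The count cannot be compared with that rate. Some of these genes were chosen after their values were seen, and genes of the same libraries are not independent. At 2 weeks replicate 3 was the far library for Hoxa13 (18.7 CPM), Hoxa10 (27.2), Hoxb9 (63.8), Nos2 (1.58), Adipoq (20.9) and Cfd (57). The 2-week replicate 2 was far for Myh11 (32.8 CPM), Actg2 (16.1), Des (30.3), Chat (2.18) and Lgr5 (14.7), and replicate 4 for Cyp2c55 (821). At 12 weeks replicate 4 was far for Slc9a3 (36.1 CPM), Slc51b (13.5), Mmp7 (10.9), Wif1 (14.4) and Notum (5.47). The 12-week replicate 3 was far for Cyp2c65 (13.8 CPM), Reg3b (4.83) and Cela1 (704), and replicate 2 for Krt17 (9.14).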

How the results depend on the processing

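Of 135 called genes among those named, 120 kept their call under every alternative and left-out library in which they were fitted, and none changed direction. Many of them were named for a large change or small p in this same fit, so they do not stand for all calls. Of all 3309 calls, 86.1% were kept without the 3 libraries that stood apart. With 10 counts required in every library 55.2% were kept, where genes removed by the filter counted as lost. Requiring 10 counts in every library, which removes genes silent in one group, left 1147 genes higher. Leaving out 1 library gave 1981 to 2477 genes higher, 1048 to 1258 lower and 0 to 4 genes whose change differed between BSHhigh and BSHlow, a count that was 26 with DESeq2, 26 with the likelihood ratio test and 1 with the replicate block. Scaling by library size alone and to 6 epithelial genes moved the share of calls that were higher from 66.6% to 76.2% and 76%. The replicate numbers did not pair the mice (deviation correlations 0.12, -0.13, 0.07 and -0.16 for numbers 1 to 4; only number 1 matched best with itself), and the replicate block called 2039 genes higher and 1051 lower. Of genes not called, 4 changed the sign of their log2 fold change when 1 library was left out. Apc ranged from -0.03 (without 12-week replicate 3) to 0.34. Axin2 ranged from -0.05 to 0.13, with -0.05 without 12-week replicate 3 and -0.04 without 2-week replicate 1 or 2. Mmp7 ranged from -2.85 to 0.2, with 0.18, 0.16 and 0.2 without 12-week replicates 1, 2 and 3 in turn. Adipoq ranged from -3.23 to 0.65 (0.65 without 2-week replicate 3). Mmp7 was also at 0.02 with library size alone and 0.04 with epithelial scaling, and Adipoq at 0.89 without the 3 libraries that stood apart. Igha and Jchain lost their calls under the block (adjusted p = 0.072 for both). The cause was not tested.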

Other observations

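Oxygen-sensing genes and the clock were not described above. Of 20 glycolysis and hypoxia genes 6 were called higher and 0 lower: Egln3, a hydroxylase that marks HIF-1 for decay, was at 22, 37.4, 29.2 and 45.6 CPM at 2 weeks and at 176, 205, 134 and 351 CPM at 12 weeks (6.45-fold, edgeR adjusted p = 2.4e-04). Bnip3, a mitophagy receptor, rose 4.82-fold (edgeR adjusted p = 1.3e-04). Of 20 circadian clock genes 4 were higher and 1 lower, close to the shares among all genes tested (15.1% higher and 7.59% lower). Nr1d1, the repressor REV-ERB alpha, read 55.3, 30.6, 70.5 and 60.5 CPM and 151, 142, 160 and 71.7 CPM (2.42-fold, edgeR adjusted p = 0.0068). Usp2, a deubiquitinase under clock control, was 2.03-fold lower (edgeR adjusted p = 0.004), with its log2 fold change between -0.86 and -0.99 when the 2-week replicate 1 or 3 or the 12-week replicate 1 or 3 was left out, under the limit of the call. The hour of sampling is not given in the sources used here.

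Adh1, an alcohol and retinol dehydrogenase, rose with little spread within groups, from 137, 117, 123 and 105 CPM at 2 weeks to 1274, 1198, 1224 and 1130 CPM at 12 weeks (9.99-fold, edgeR adjusted p = 8.8e-07). Among 17 tested retinoid genes 7 were higher and 3 lower, beside 15.1% and 7.59% of all genes tested. Cela1, an elastase known from the pancreas, rose 10.3-fold, from 39.9 to 56.6 CPM to 397 to 704 CPM (edgeR adjusted p = 8.8e-06); 3 of the 15 acinar genes passed the count filter and 2 were called higher. Igf2bp2 and Hmga2, an RNA-binding protein and a chromatin protein of growing tissues, fell 6.66-fold and 2.74-fold without overlap (edgeR adjusted p = 4.9e-05 and 2.1e-04).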
